A study of Mus musculus with 6 samples.

Results

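The 10 genes described here encode tetraspanins, and they were taken by name from the 10245 genes of a table of normalized read counts. Their symbols are Tspan1, Tspan8, Tspan3, Tspan4, Tspan15, Cd9, Cd63, Cd81, Cd82 and Cd151, and all 10 are in the table. RNA-seq was run on the whole pancreas of 3 control and 3 Ptf1a cKO mice, 1 library per mouse, 14 days after the first of 3 daily tamoxifen (TM) doses of 0.25 mg/g given by gavage in corn oil. Control mice were Ptf1a(CreER/+), 4 months old, and Ptf1a cKO mice were Ptf1a(CreER/fl), 5 months old, with 1 male and 2 females in each group. Every mouse therefore carried an allele in which the tamoxifen-dependent recombinase CreER sits in the Ptf1a locus, and every mouse received TM. By the paper's account that allele makes no PTF1A protein, so control mice were functionally heterozygous for Ptf1a and not wild type. The paper also gives its inducible-Cre mice an EYFP reporter allele of recombination. The Ptf1a cKO mice had in addition a floxed Ptf1a allele, which CreER removes only in cells that express Ptf1a and recombine, so the tissue is a mixture of deleted and undeleted cells. Age followed genotype in these samples, and the 2 cannot be told apart.

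Tetraspanins are small proteins that cross the membrane 4 times and gather other membrane proteins, such as integrins, immunoglobulin-type receptors and proteases, into shared patches of the plasma membrane and of endosomes. They do not act as receptors in the usual sense but set where their partners sit and how long they stay at the surface. Cd9, Cd81 and Cd63 are widely used as surface markers of extracellular vesicles. In the pancreas, Ptf1a encodes the bHLH subunit of PTF1, the transcription factor that keeps acinar cells in their enzyme-secreting state. The comparison asks how this family differed once Ptf1a was deleted in adult acinar cells.

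The promoters of Tspan1 and Tspan8, the members with the largest fitted log2 fold changes, together with that of Cd81, are given to show what lies at their starts. They run from 250 bases before to 50 bases after the start of transcription in RefSeq (build GRCm38.p6), 5′ to 3′ on the strand of the gene. Capitals mark the letters CANNTG, the E-box that bHLH factors bind, and TGGGAA, the core read by RBPJ-type factors such as the RBPJL subunit of PTF1, on either strand. No marked match overlaps another.
Tspan1, chr4:116167549-116167848, minus strand: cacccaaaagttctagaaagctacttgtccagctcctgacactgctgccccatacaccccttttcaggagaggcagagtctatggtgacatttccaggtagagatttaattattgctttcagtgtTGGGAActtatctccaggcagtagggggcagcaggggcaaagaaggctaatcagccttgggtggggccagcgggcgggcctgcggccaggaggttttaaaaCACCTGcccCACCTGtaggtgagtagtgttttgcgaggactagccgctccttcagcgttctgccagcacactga
Tspan8, chr10:115817034-115817333, plus strand: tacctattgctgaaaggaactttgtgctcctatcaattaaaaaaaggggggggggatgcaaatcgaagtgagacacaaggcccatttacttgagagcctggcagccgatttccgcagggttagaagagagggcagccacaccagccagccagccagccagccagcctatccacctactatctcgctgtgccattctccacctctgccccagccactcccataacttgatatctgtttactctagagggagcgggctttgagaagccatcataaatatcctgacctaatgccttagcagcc
Cd81, chr7:143052500-143052799, plus strand: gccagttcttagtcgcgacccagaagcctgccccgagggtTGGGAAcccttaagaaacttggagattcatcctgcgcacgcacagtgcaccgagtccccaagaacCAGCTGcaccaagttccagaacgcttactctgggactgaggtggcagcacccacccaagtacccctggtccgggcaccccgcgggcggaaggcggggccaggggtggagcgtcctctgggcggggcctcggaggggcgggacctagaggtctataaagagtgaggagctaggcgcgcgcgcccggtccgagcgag

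Tspan1 had 2 E-boxes of the same letters, starting 24 and 15 bases before the start, and 1 match to TGGGAA starting 125 bases before it. Cd81 had an E-box starting 145 bases before the start and a TGGGAA match starting 210 bases before it. Neither motif is in the Tspan8 window. All 10 members matched RefSeq by symbol, with 15 windows because Cd82, Cd151 and Tspan4 have several starts. An E-box was in 12 of the 15 windows, against 72.3% of all 32851 windows of this length, TGGGAA in 9, against 25.6%, and both in 8, against 19%. Windows of 1 gene are not independent, and a match to these letters is not a site. The dinucleotide CG occurred 6 times in the Tspan1 window and 5 times in that of Tspan8, where the median window has 7, and 23 times in that of Cd81.

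Values are normalized counts that the authors placed on a common scale for the 6 libraries, with a median gene between 125.0 and 128.5. Whole reads per gene could not be recovered from them, so the values carry no depth and the spread between mice is the only measure of error. Log2 fold changes are Ptf1a cKO over control, on a log2(value + pseudocount) scale in which the pseudocount equals 3.41 normalized counts, which understates changes at low values. Significance came from limma's moderated test over all 10245 genes with Benjamini-Hochberg adjustment, and a gene passed at an adjusted p under 0.05. Ptf1a itself had 566, 601 and 652 normalized counts in control and 19.8, 70.1 and 10.2 in Ptf1a cKO libraries, which fits the labels. Replicate 2 of Ptf1a cKO kept the most Ptf1a, and its sum of 12 acinar markers was also the highest of that group, at 3877250 normalized counts against 2238060 and 1271890. All acinar markers of the list were present, at sums of 9837900 to 12265700 in control. In whole tissue, fewer cells of a type and less RNA per cell cannot be told apart.

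Of the 10 tetraspanins, 4 were higher in Ptf1a cKO pancreata (Tspan1, Cd81, Tspan3 and Cd9), 1 was lower (Cd82) and 5 did not pass the test. Across all genes tested, 33.9% passed, 17.1% as higher and 16.8% as lower. The 3 control and 3 Ptf1a cKO values did not overlap for 7 of the 10 members, with 50.8% as the background over the whole table. Their median log2 fold change was 0.60, where that of the whole table was 0.036, and it is also 0.60 with Tspan8 at the bound given for it below. The 4 higher members stayed past the threshold in all 19 alternative settings, while Cd82 passed in 13 of them, in 1 of these as higher, namely with all libraries rescaled to the same total. That rescaling moves the median gene by 1.49, and with that shift subtracted Cd82 lay at -0.47 on the log2 scale. With Ptf1a cKO replicate 3 left out, 4 members were higher and none of the 10 was lower past the threshold.

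**Figure D1:**
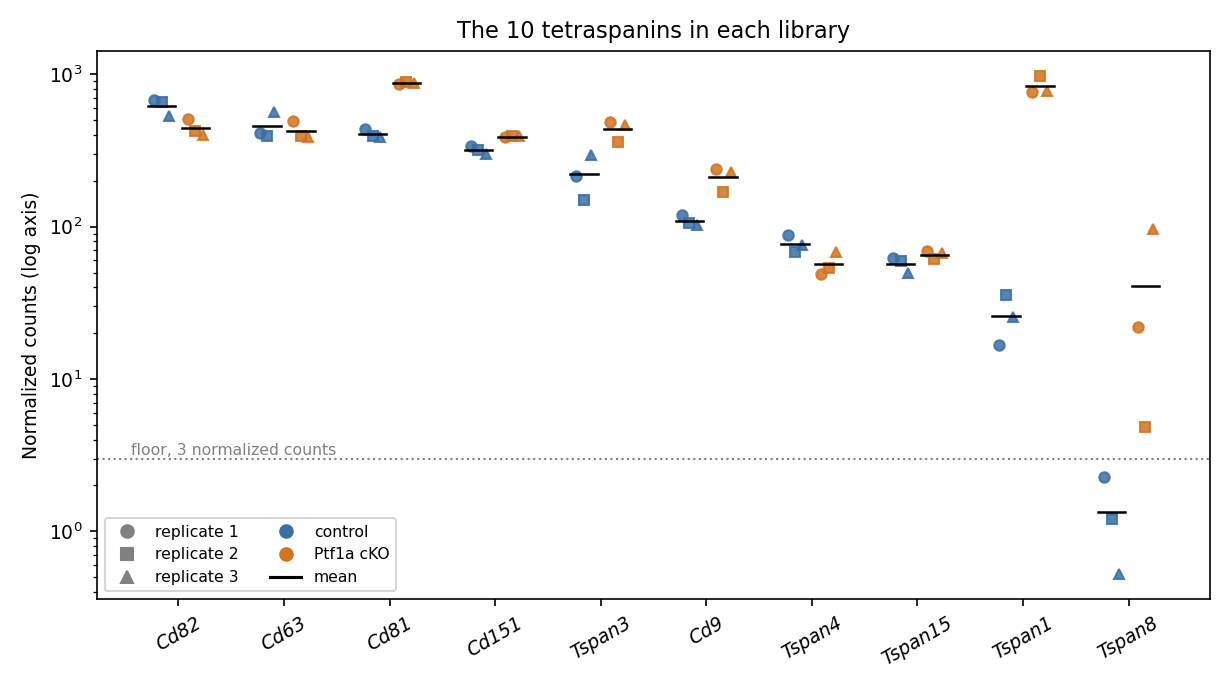
Normalized counts (log axis) of the 10 tetraspanins in each library, ordered by control mean, with control in blue, Ptf1a cKO in orange, 1 marker shape per replicate number and a black bar at the mean. Tspan1 went from the second lowest control mean (26.0) to a mean of 845, and all 3 control values of Tspan8 lie under the dotted line at 3 normalized counts.

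Tspan1 encodes a tetraspanin of epithelial surfaces. It had 16.6, 35.6 and 25.7 normalized counts in control and 771, 982 and 783 in Ptf1a cKO pancreata. The lowest Ptf1a cKO value was thus far above the highest control value, and the spread within the Ptf1a cKO group was small, with a coefficient of variation of 14.0% against 36.7% in control. Its log2 fold change was 4.90 (95% interval 4.39 to 5.40, adjusted p = 8.68e-06 from limma), and only 12 of the 10245 genes had a higher one. With single libraries left out it ran from 4.66 to 5.15, and the library with the most remaining Ptf1a, replicate 2, had the highest Tspan1 of all. The exact permutation test of 3 libraries against 3 gives a two-sided p of 0.10 at the smallest, and Tspan1, like each member without overlap, reached that value and no lower one. The ratio of means was 32.6.

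Tspan8, an epithelial tetraspanin known as a surface antigen of gastrointestinal carcinomas, was the least abundant member in control pancreata. It had 2.28, 1.21 and 0.521 normalized counts in control and 21.8, 4.84 and 95.9 in Ptf1a cKO pancreata. All control values lay at or under a floor of 3 normalized counts per library, and the 3 Ptf1a cKO values, though all above it, differed by 19.8-fold among themselves. Against that floor the Ptf1a cKO mean of 40.9 was at least 13.6-fold higher, but 78.3% of that group's counts came from replicate 3, and without that library the bound drops to 4.44-fold. The fitted log2 fold change of 2.55 depends on the pseudocount and did not pass the test (95% interval 0.46 to 4.64, adjusted p = 0.0606 from limma). Over the alternatives the adjusted p ran from 1.96e-04 after rescaling to the same total to 0.1998 without Ptf1a cKO replicate 3, and it was 0.00564 without Ptf1a cKO replicate 2. The table lists only genes that reach at least 27.6 normalized counts in some library, and Tspan8 did so in Ptf1a cKO replicate 3 alone, so its presence in the table already rests on that library. Within the Ptf1a cKO group, Tspan8 was lowest in the library with the highest acinar marker sum and highest in the one with the lowest, and the part of this in the result was not tested.

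Cd81, Cd9 and Tspan3 were each present at moderate levels in control pancreata and rose in Ptf1a cKO by ratios of means of 2.17, 1.94 and 1.99. Cd81 is a tetraspanin found on the surface of most cells. It had 438, 395 and 388 normalized counts in control and 870, 891 and 884 in Ptf1a cKO libraries. The Ptf1a cKO values were tight, with a coefficient of variation of 1.23%, and none came near the control range. The log2 fold change was 1.11 (95% interval 0.87 to 1.35, adjusted p = 1.73e-04 from limma).
Cd9 is needed on the egg for fusion with sperm and is found on many epithelia. Its values were 119, 106 and 103 in control and 239, 169 and 227 in Ptf1a cKO. Replicate 2 of Ptf1a cKO was the one nearest to control, and no value overlapped. Exons of Cd9 share 10.7% of their bases with Gm26728 on the other strand. The log2 fold change was 0.92 (95% interval 0.58 to 1.26, adjusted p = 0.00205 from limma).
Tspan3 had 214, 151 and 297 normalized counts in control and 488, 362 and 465 in Ptf1a cKO. The groups did not overlap, although the gap between the highest control and the lowest Ptf1a cKO library was narrow next to the spread within control (SD 73.3, n = 3). The log2 fold change was 1.02 (95% interval 0.51 to 1.53, adjusted p = 0.00867 from limma). Leaving out single libraries gave 0.78 to 1.26.

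Cd82, also called Kai1 for its part in limiting metastasis, was the only member that was lower, and it had the highest control mean of the 10. It had 679, 655 and 530 normalized counts in control and 509, 425 and 402 in Ptf1a cKO libraries. The highest Ptf1a cKO value lay just under the lowest control value. The log2 fold change was -0.48 (95% interval -0.79 to -0.16, adjusted p = 0.0281 from limma). The call was lost in the fits without control replicate 1 (adjusted p = 0.108), control replicate 2 (0.0992), Ptf1a cKO replicate 2 (0.0521) or Ptf1a cKO replicate 3 (0.0844), with changes between -0.59 and -0.41 over the 6 such fits (limma).

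The remaining members did not pass the test. Cd151, which binds laminin-receptor integrins, came closest, with 339, 320 and 300 normalized counts in control and 387, 393 and 392 in Ptf1a cKO. These groups did not overlap, and the log2 fold change was 0.29 (95% interval 0.054 to 0.52, adjusted p = 0.0589 from limma). Tspan4, known from migrasomes, the vesicles left behind by moving cells, had 87.7, 67.8 and 75.4 in control and 49.0, 53.2 and 68.5 in Ptf1a cKO. Its groups overlapped, with a log2 fold change of -0.42 (95% interval -0.81 to -0.030, adjusted p = 0.0894 from limma) that turned to 1.01 after rescaling to the same total. Relative to the median gene under that scaling it was -0.48. Exons of Tspan4 share 13.4% of their bases with Chid1 on the other strand, so reads there may have been left out or assigned to either gene.
Cd63, a tetraspanin of late endosomes and lysosomes, had 412, 393 and 567 normalized counts in control and 495, 394 and 388 in Ptf1a cKO. Its groups overlapped almost fully. The 95% interval of its log2 fold change ran from -0.46 to 0.28, which leaves room for a change of either sign.
Tspan15, one of the TspanC8 tetraspanins that escort the protease ADAM10 to the cell surface, ranged from 49.3 to 62.4 in control and from 61.3 to 68.8 in Ptf1a cKO. Its interval ran from -0.15 to 0.54.

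**Figure D2:**
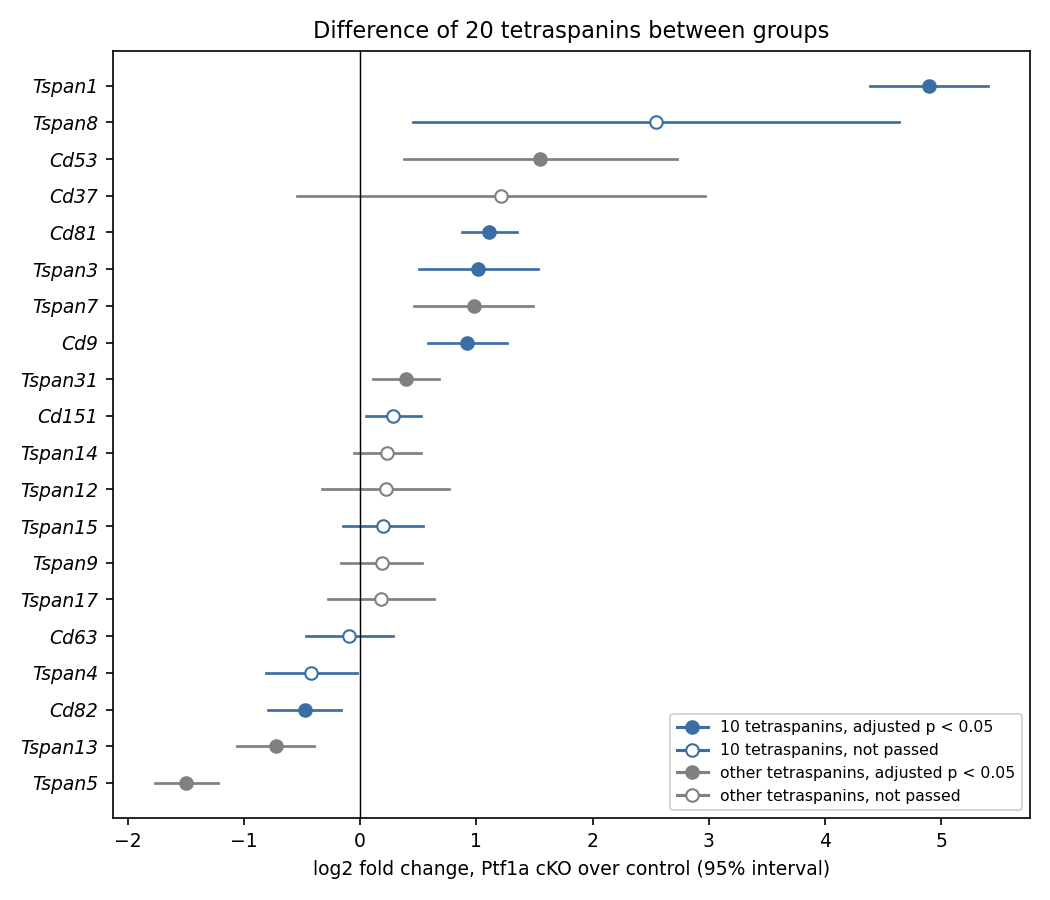
Log2 fold change of Ptf1a cKO over control for the 20 tetraspanins analysed, as points with 95% intervals from limma, in blue for the 10 members and in grey for the other tetraspanins. Filled points passed an adjusted p under 0.05. Tspan1 stands at 4.90 with a narrow interval, the interval of Tspan8 spans 0.46 to 4.64, and Tspan5 lies lowest at -1.50. Rescaling to the same total moves the median gene by 1.49 and places Tspan13, Cd82, Tspan4 and Cd63 above 0.

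To compare levels between genes, normalized counts were divided by the length of the union of exons in kilobases. That union takes in the exons of every annotated transcript of a gene, and came to 3682 bases for Cd63 and 2329 for Tspan1. It can be longer than the transcripts present in the tissue, which were not measured. Ranks and shares between genes therefore hold for these lengths only. In control pancreata Cd82 ranked first, with 207 ± 26.7 normalized counts per kb (SD, n = 3), ahead of Cd81 with 141 ± 9.29, Cd63 with 124 ± 25.9 and Cd151 with 117 ± 7.10. The ranges of Cd81 and Cd63 overlapped, as did those of Cd63 and Cd151, so the order among these neighbours is not set. Cd9, Tspan3 and Tspan4 followed at 53.5, 51.6 and 35.3 per kb, again with overlapping neighbours. Tspan1 at 11.1, Tspan15 at 6.97 and Tspan8 at 0.785 per kb came last.
In Ptf1a cKO pancreata Tspan1 ranked first, with 363 ± 50.7 normalized counts per kb (SD, n = 3). Cd81 came next at 306 ± 3.77 and did not overlap with it. Cd82 fell to the third rank at 148 ± 18.7 and overlapped with Cd151 at 143. Cd63, Cd9 and Tspan3 lay together between 103 and 116 per kb. Tspan8 at 24.0 overlapped with both Tspan4 at 26.1 and Tspan15 at 8.02, since its own libraries ranged from 2.84 to 56.4.

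Expressed as a share of the summed per-kb level of the 10 genes, Tspan1 made up 0.916%, 2.12% and 1.48% in the control libraries and 24.5%, 31.8% and 25.1% in the Ptf1a cKO libraries. Cd82 made up 27.6% ± 3.54 in control and 11.1% ± 1.31 in Ptf1a cKO (SD, n = 3 each). The share of Cd81 was 18.9% ± 0.740 in control and 22.9% ± 0.519 in Ptf1a cKO (SD, n = 3 each), with no overlap between the groups. The summed level itself lay between 720 and 779 per kb in control and between 1325 and 1353 in Ptf1a cKO, and without Tspan1 between 705 and 771 and between 904 and 1022. Shares within a library do not depend on how the library was scaled, but they depend on the exon lengths used and are not independent of one another.

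**Figure D3:**
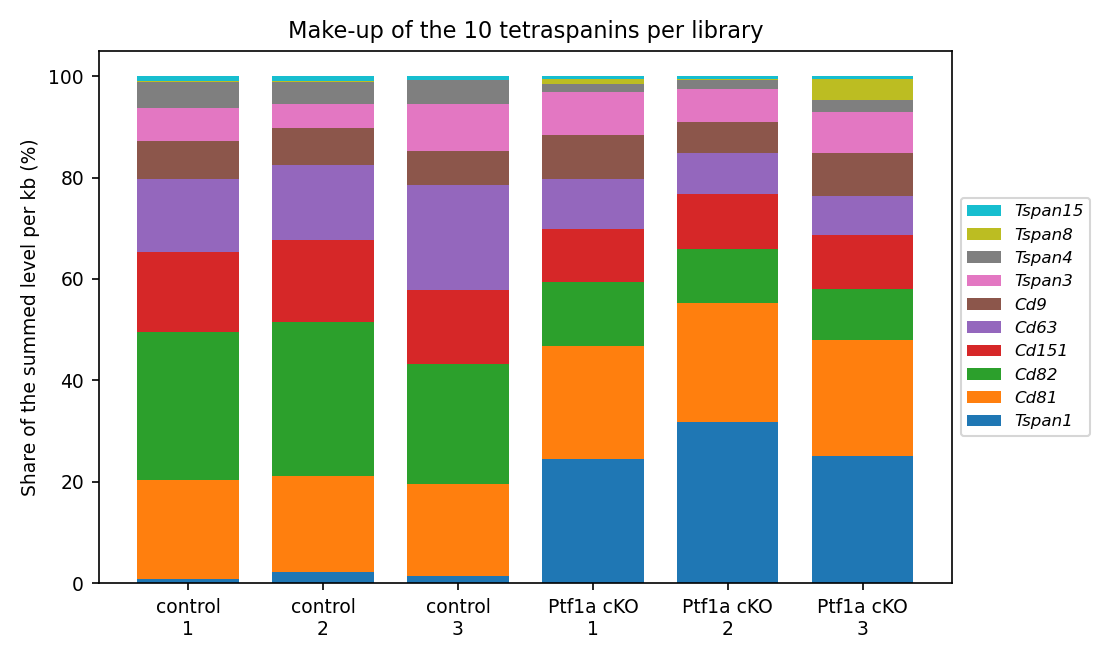
Share of each of the 10 tetraspanins in their summed level per kb of the union of annotated exons, in percent, 1 bar per library. Tspan1 (bottom, blue) makes up at most 2.12% of a control bar and at least 24.5% of a Ptf1a cKO bar, and Cd82 (green) shrinks from 27.6% to 11.1% on average.

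Of the 21 other tetraspanin genes listed for the mouse, 10 could be analysed. Past the threshold 3 of these were higher in Ptf1a cKO (Tspan7, Tspan31 and Cd53), 2 were lower (Tspan5 and Tspan13) and 5 did not pass, with a median log2 fold change of 0.23. The share that passed was 50%, against 33.9% of all genes. Without Ptf1a cKO replicate 3 the 3 higher ones become 1 and the 2 lower ones stay 2, and after rescaling to the same total 9 were higher and none of the 10 was lower. Without control replicate 1, control replicate 2 or Ptf1a cKO replicate 1, 1 was higher in each case.
Tspan5, like Tspan15 a partner of ADAM10, had 303, 279 and 267 normalized counts in control and 106, 101 and 87.7 in Ptf1a cKO. No other tetraspanin analysed fell as far, and its groups lay well apart. The log2 fold change was -1.50 (95% interval -1.77 to -1.22, adjusted p = 8.44e-05 from limma). Rescaling to the same total gave -0.030, and -1.52 relative to the median gene under that scaling. The other TspanC8 genes analysed, Tspan14 and Tspan17, had log2 fold changes of 0.23 and 0.18 and did not pass.
Tspan13 had 522, 537 and 724 in control and 383, 359 and 323 in Ptf1a cKO libraries, which is -0.73 on the log2 scale (adjusted p = 0.00581 from limma). After rescaling to the same total Tspan13 lay at 0.76, and at -0.72 relative to the median gene under that scaling. Tspan31 changed by 0.39 (adjusted p = 0.0392 from limma), and 29.2% of its exon bases are shared with Cdk4 on the other strand, so its counts are uncertain. It passed in 11 of the 19 alternatives and not without control replicate 1 or 2 or Ptf1a cKO replicate 1 or 3. Tspan9 and Tspan12, known from platelets and from retinal vessels, had log2 fold changes of 0.19 and 0.22 and did not pass.

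Tspan7, a tetraspanin of neurons and islet cells, had 60.1, 42.3 and 73.1 normalized counts in control and 114, 91.3 and 149 in Ptf1a cKO, which is a change of 0.98 on the log2 scale (adjusted p = 0.0110 from limma). Its order within each group was that of the summed islet markers. The sum of 8 hormone and granule genes of islets was 12207, 11585 and 43041 in control and 27584, 5893 and 33764 in Ptf1a cKO libraries, with none of the 8 at 0 in any library and none past the threshold. Tspan3 was likewise lowest in the replicate 2 libraries of both groups and, among controls, highest in replicate 3. Cd63 was highest of all in control replicate 3. Within Ptf1a cKO, however, Cd63 was lowest, at 388, in replicate 3, the library with the highest islet sum of that group. The replicate 2 libraries had the lowest islet sum of each group, but these sums were not alike, at 11585 in control and 5893 in Ptf1a cKO. The part of islet content in these results was not tested.
Cd37 and Cd53 are tetraspanins of leukocytes, Cd37 mainly of B cells. Cd53 had 14.0, 8.51 and 33.9 normalized counts in control and 39.7, 34.0 and 117 in Ptf1a cKO. The groups barely missed each other, and the difference of 1.55 on the log2 scale (adjusted p = 0.0460 from limma) was 1.00 (adjusted p = 0.144) without Ptf1a cKO replicate 3. It also missed the threshold without control replicate 1 (0.123), control replicate 2 (0.143) or Ptf1a cKO replicate 1 (0.0617). Cd37 had 17.2, 11.7 and 3.98 in control and 11.5, 13.1 and 113 in Ptf1a cKO, so that only replicate 3 stood out (adjusted p = 0.254 from limma). Like Tspan8, Cd37 reached the 27.6 normalized counts needed for listing in Ptf1a cKO replicate 3 alone, so it was analysed only through that library. In that same library Ptprc, the pan-leukocyte gene, was at 419 against 22.7 to 86.6 in the other 5. Ptprc did not pass (adjusted p = 0.0772 from limma). Of 13 leukocyte markers listed, 10 could be analysed. Their summed level was 1016 to 1920 in control and 6361, 2240 and 6990 in Ptf1a cKO replicates 1 to 3. That sum does not set replicate 3 apart from replicate 1, where H2-Aa, H2-Ab1 and Cd74 made most of it (1305, 1100 and 2491). Ptprc, Laptm5 and Itgam were higher in Ptf1a cKO replicate 3 (419, 325 and 114) than in replicate 1 (86.6, 124 and 50.6). Cd14, H2-Ab1 and Cd74 were lower in replicate 3 than in replicate 1. Past the threshold 9 of the 10 leukocyte markers analysed were higher, where 17.1% of all genes were, and no library had one at 0. Their part in the values of Cd53, Cd81 and other members was not tested.

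**Figure D4:**
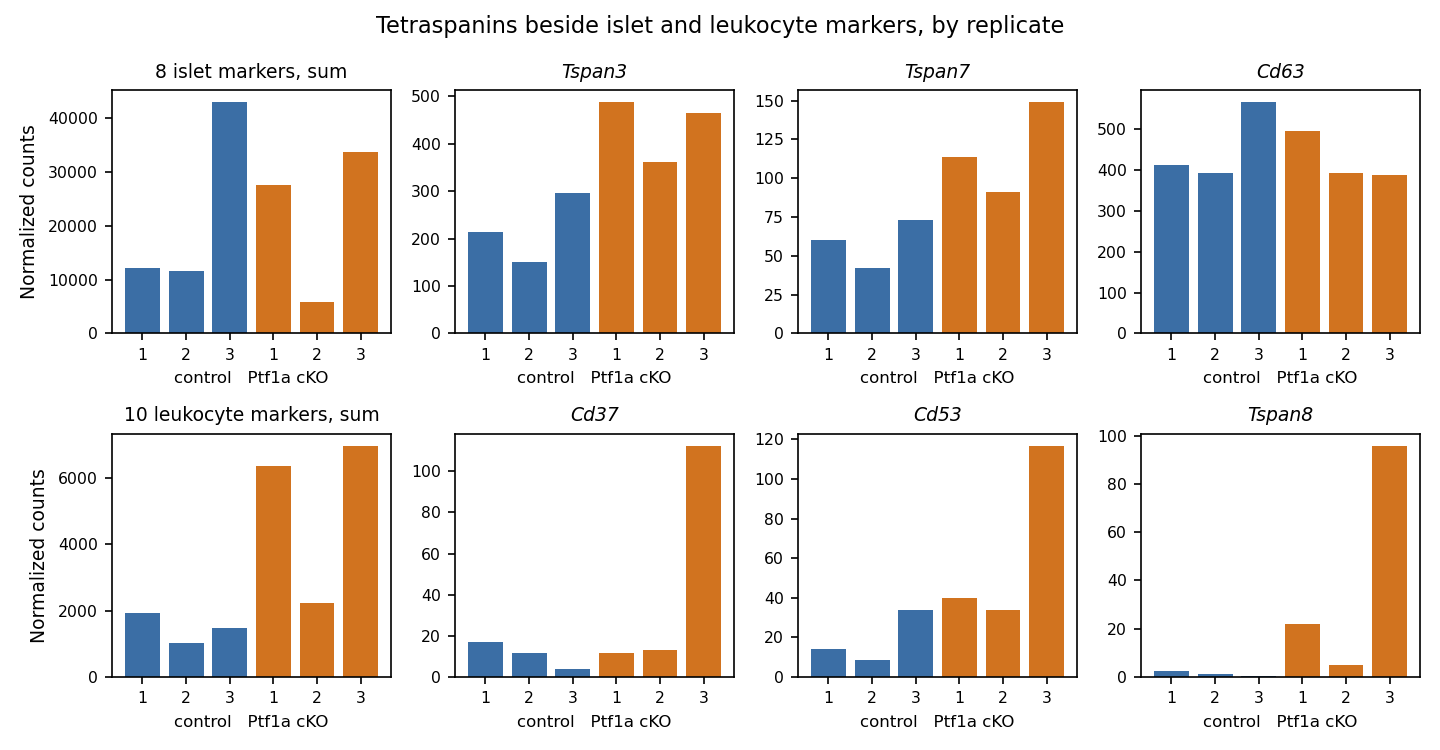
Normalized counts per library, control replicates 1 to 3 in blue and Ptf1a cKO replicates 1 to 3 in orange, for the sum of 8 islet markers beside Tspan3, Tspan7 and Cd63, and for the sum of 10 leukocyte markers beside Cd37, Cd53 and Tspan8. Islet markers, Tspan3 and Tspan7 are lowest in the replicate 2 libraries within each group, and Cd37, Cd53 and Tspan8 are highest in Ptf1a cKO replicate 3 (113, 117 and 95.9). Cd37 and Tspan8 reach the 27.6 normalized counts needed for listing in that library alone.

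Tetraspanins act through the proteins they hold, and 18 of 20 listed partners could be analysed. Past the threshold 5 were higher (Epcam, Mmp14, Cd44, Gpr56 and Cldn7), 1 was lower (Adam10) and 12 did not pass, with a median log2 fold change of 0.11. The share that passed, 33.3%, was close to the 33.9% of all genes. Epcam and Cldn7, an epithelial adhesion molecule and a claudin that are found together with Tspan8 and Cd9, had log2 fold changes of 1.37 and 0.47 (adjusted p = 9.18e-05 and 0.0216 from limma). Cldn7 lost its call without control replicate 1 or 2 or Ptf1a cKO replicate 1 or 2 (adjusted p from 0.0517 to 0.0826). Epcam had 235, 243 and 199 normalized counts in control and 593, 571 and 595 in Ptf1a cKO, with no overlap. Cd44, the hyaluronan receptor, and Gpr56, an adhesion receptor that associates with Cd81, had log2 fold changes of 0.93 and 0.66 (adjusted p = 0.0147 and 0.00925 from limma). Cd44 lost its call without control replicate 2 (0.0504) or Ptf1a cKO replicate 3 (0.0540). Mmp14, a matrix protease of the cell surface, rose by 1.12 on the log2 scale (adjusted p = 0.00229 from limma).
Adam10, the protease that Tspan5, Tspan14, Tspan15 and Tspan17 bring to the surface, had 374, 436 and 373 normalized counts in control and 241, 291 and 296 in Ptf1a cKO. The groups lay apart, with a change of -0.51 on the log2 scale (adjusted p = 0.0140 from limma). Rescaling to the same total gave 0.97, and -0.51 relative to the median gene under that scaling. The call was lost without control replicate 2 (adjusted p = 0.0619) or Ptf1a cKO replicate 1 (0.0506). Without control replicate 2, 3 partners were higher. None of the 18 was lower without control replicate 2 or Ptf1a cKO replicate 1, and 2 were lower without control replicate 3 or Ptf1a cKO replicate 2.
Integrin subunits that bind tetraspanins did not pass. Itgb1, which pairs with most of them, had 917, 893 and 927 normalized counts in control and 927, 842 and 965 in Ptf1a cKO, with a log2 fold change of -0.0035 (95% interval -0.25 to 0.24). The immunoglobulin-type partners of Cd9 and Cd81, Igsf8 and Ptgfrn, had log2 fold changes of -0.34 (95% interval -0.81 to 0.12) and 0.15 (95% interval -0.18 to 0.48) and did not pass. Without control replicate 3, Igsf8 lay at -0.59 and passed (adjusted p = 0.0186 from limma).

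Markers of other cell types also differed between the groups. Of 10 gastric epithelium markers listed, 7 could be analysed. Their summed level was 22828 to 27712 normalized counts in control and 208292 to 565607 in Ptf1a cKO libraries. Past the threshold 5 of the 7 were higher, led by Pga5, Gkn3 and Chia. Tff2 alone made most of the control sum, with 22877, 21635 and 19493 normalized counts. It had 23054, 19954 and 13418 in Ptf1a cKO and did not pass (log2 fold change -0.21, adjusted p = 0.514 from limma). Of 8 ductal markers listed, 7 could be analysed, with a summed level of 3977 to 4901 in control and 25847 to 110284 in Ptf1a cKO. Past the threshold 4 of the 7 were higher, Epcam being 1 of them. Spp1 alone made most of that rise, with 1677, 1959 and 1327 normalized counts in control and 87512, 20971 and 105340 in Ptf1a cKO, and the other 6 summed to 2647 to 2943 and 4876 to 5370. Krt19 had a log2 fold change of -0.012 and did not pass. The sum of 7 fibroblast markers was 2739 to 3066 and 5224 to 9842, with 6 of the 7 higher. Of 6 endothelial markers 1 was higher, with sums of 653 to 850 and 690 to 875, and of the 12 acinar markers 10 were lower. Across all genes 17.1% passed as higher and 16.8% as lower, and the endothelial share, 16.7%, was close to the former. No analysed marker of these lists was at 0 in any library, and listed markers that could not be analysed are left out of these counts. The values of Tspan1, Tspan8, Cd9, Cd81 and Tspan3 did not overlap between groups and were higher in the same 3 libraries as these gastric, ductal and fibroblast sums, whose part in them was not tested.

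Likeness of pattern was measured by the root mean square difference, over the 6 libraries, between the log2 values of 2 genes after each gene's own mean was subtracted. Most like Tspan1 were Muc5ac, a gel-forming gastric mucin, at 0.32, Slc1a2, a glutamate transporter, at 0.33, and Thbs1, the matricellular protein thrombospondin, at 0.38, where the median gene differed by 2.46. Muc5ac had 1.33, 7.89 and 1.36 normalized counts in control and 115, 224 and 183 in Ptf1a cKO. As for Tspan1, replicate 2 was the highest library of each group, but the control values 1.33 and 1.36 lay under the floor of 3. Slc1a2 was also highest in Ptf1a cKO replicate 2, at 211, but among controls in replicate 3, at 4.88. Thbs1 was highest in control replicate 2, at 225, but within Ptf1a cKO in replicate 1, at 8755. Most like Tspan8 were Pdk4, a kinase that restrains pyruvate dehydrogenase, at 0.35, Gm1966 at 0.44 and Col27a1, a fibrillar collagen, at 0.48, where the median gene differed by 1.64. Pdk4 had 3.54, 5.73 and 1.36 in control and 21.0, 10.9 and 148 in Ptf1a cKO, with the same order of Ptf1a cKO libraries as Tspan8. None of the other 9 members was near Tspan1 by this measure, the closest being Tspan8 at 1.68. With 3 libraries against 3 the measure largely restates the log2 fold changes, so this adds little to them. All control values of Muc5ac, Slc1a2, Pdk4 and Gm1966 were under the 27.6 normalized counts needed for listing. These genes were thus analysed through Ptf1a cKO libraries alone, and Pdk4 and Gm1966, like Tspan8, through replicate 3 alone. Such likeness rests on 6 libraries in 2 groups and is a description.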

How the data were processed

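RNA-seq libraries came from the whole pancreas of 3 control and 3 Ptf1a cKO mice. The submitters' processing notes name TopHat2 2.0.4, Bowtie 0.12.7.0, SAMtools 0.1.18.0, HTSeq 0.6.0 and the mm9 build, and the study's methods name edgeR with TMM scaling. The authors deposited 1 table whose unit is a signal, normalized counts per gene that are not whole numbers. The values do not carry read depth, and no counting error can be given. The 3 entries that belong to no single gene (no feature, ambiguous, and alignment not unique) were left out. Together they made up 75.7% to 82.6% of the summed values of a library, which is not a share of reads outside genes. The strand setting of the counting is not given in the sources used here.

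Values were divided by 13.6393, log2(value + 0.25) was taken, and groups were compared with limma 3.58.1 in R 4.3.3, with a mean-variance trend, no covariate, two-sided tests and Benjamini-Hochberg adjustment across all 10245 genes (threshold 0.05). The filter on low values (mean of 0.25 or more on that scale) removed no gene. The fit was tested on simulated data. Exon lengths and overlaps are from GENCODE M21 and promoters from RefSeq, both GRCm38, matched by symbol, and positions were not converted. Tables and figures were made with Python 3.11.15.

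The members and all lists were chosen with earlier results of these data known. Named genes are the 10 members, the other tetraspanins, partners that passed as well as Adam10, Itgb1, Igsf8 and Ptgfrn whatever their p, Ptf1a, the 3 genes most like Tspan1 and Tspan8, and up to 3 markers of each list by mean level. Ptprc, Laptm5, Itgam, Cd14, H2-Ab1, Krt19 and Tff2 were added after their values were seen. The values of 1 listed partner gene are not reported here. Same-numbered libraries were not treated as pairs, since the labels give no shared litter or day for a number. Alternatives were other pseudocounts, filters, scalings, variance models, a replicate block, sex, a threshold of 0.01 and each library left out.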

Additional observations from a re-analysis of the deposited data

How the results depend on the processing

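The values carry no depth, so precision here rests on the spread between 3 mice a group. Tspan1, Cd81, Tspan3 and Cd9 kept direction and side of the threshold in all 19 alternatives, with Tspan1 between 4.46 and 6.31. Scaling to the same total for all libraries moved most results, since it calls 9719 genes in place of 3475, 98.7% of them as higher in place of 50.4%. Under it 10 members were higher and 0 lower, 9 other tetraspanins higher and 0 lower, and 17 partners higher and 0 lower, and Tspan8 passed at 3.51. Changes that turned from negative to positive under it were Tspan4 (1.01), Cd63 (1.40), Cd82 (1.01), Tspan13 (0.76), Igsf8 (1.10), Itgb1 (1.49), Adam10 (0.97), Itga3 (1.13), Itgb4 (1.13), Pi4k2a (1.43) and Fzd4 (1.41), against 1.49 for the median gene. With the same total without digestive enzymes, which places the median gene at -0.10 and makes 34.3% of calls higher, 2 members were lower, 1 other tetraspanin higher and 2 partners lower. Itgb1 was 0.042 with the same 75th percentile. Without a mean-variance trend, 0 members were lower, 1 other tetraspanin was higher and Tspan8 passed at 2.55 (adjusted p = 0.0448, limma). At an adjusted p under 0.01, 0 members were lower, 0 other tetraspanins higher, 3 partners higher and 0 lower.

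With single libraries left out, members lower ran from 0 to 1, other tetraspanins higher from 1 to 3, partners higher from 3 to 6 and partners lower from 0 to 2. Tspan8 ran from 1.55 to 3.35, Cd63 from -0.20 to 0.072 and Itgb1 from -0.046 to 0.052. Tspan8 has no value with a mean of at least 2, because that filter removes it. The cause of these shifts was not tested. With the replicate block 4 members were higher and 1 lower, as without it. The deviations of same-numbered libraries correlated at 0.039, 0.13 and 0.14, and Ptf1a cKO replicate 1 correlated best with control replicate 2 (0.083), so the numbers were not taken as pairs.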
